A study of Mus musculus with 6 samples.

Results

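The nuclear genes of the mitochondrial respiratory chain were examined for promoter accessibility in intestinal organoids from aged and young mice. The members were all peaks within 1000 bp of the transcription start site (TSS) of a protein-coding gene with a name beginning Nduf, Uqcr, Cox4 to Cox8 or Atp5, or named Sdha, Sdhb, Sdhc or Sdhd. The rule used names and distances and no measured value. It found 70 peaks of 67 genes, among 156733 consensus peaks and 12285 promoter peaks of 11135 coding genes. Complex I had 34 genes, complex II 4, complex III 6, complex IV 12 and complex V 11. Ndufb7, Uqcrc2 and Atp5l had an extra peak, and each gene is given by its peak with the most counts.

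The respiratory chain sits in the inner mitochondrial membrane. Complexes I and II pass electrons from NADH and succinate to ubiquinone, complex III passes them on to cytochrome c, and complex IV passes them to oxygen. Complexes I, III and IV pump protons, and complex V, the ATP synthase, uses the gradient to make ATP. Most subunits are encoded in the nucleus, and the factors NRF1, GABP (an ETS factor) and YY1 are textbook regulators of their promoters. In the intestine, dividing crypt cells and absorptive enterocytes are known to differ in their use of respiration.

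The assay was ATAC-seq, which uses Tn5 transposase to cut and tag open chromatin so that read counts over a region report its accessibility. The 3 aged libraries came from C57BL/6JRj mice of 20 to 22 months and 3 young libraries from mice of 2 to 3 months of the same strain, all without treatment. Organoids, which are epithelial cultures grown from the small intestine, had been kept for 3 to 5 weeks and were taken at passage 4 (replicate 1), 3 (replicate 2) or 2 (replicate 3), with 1 library of each age per passage. Whether each library had its own mouse is not stated in the labels, and the p-values speak only to variation among these 6 libraries, some of which may be technical.

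The aged libraries held 22363682, 21687816 and 26093521 counts in peaks, and the young libraries 7278161, 25901670 and 19208483. Young replicate 1 was thus the shallowest library and had the least precise values. Promoters of epithelial marker genes were open, with 8 of 10 having a promoter peak and summed values of 333 to 350 CPM (counts scaled to a common library total) in aged and 308 to 354 CPM in young libraries. Elf3 and Vil1 had no such peak. Immune markers had promoter peaks at 2 of 6 genes, summing to 0.455 to 1.09 CPM in aged and 0.561 to 1.48 CPM in young libraries, and Ptprc had none. Stromal markers (3 of 6 genes) summed to 21.9 to 26.8 CPM in aged and 19.0 to 23.7 CPM in young libraries, with no peak at Acta2, Col1a2 or Dcn. Endothelial markers (2 of 4 genes) summed to 1.95 to 2.31 CPM in aged and 2.80 to 4.05 CPM in young libraries, with no peak at Cdh5 or Pecam1. Glial and neural markers (2 of 4 genes) summed to 7.34 to 8.77 CPM in aged and 6.75 to 8.81 CPM in young libraries. The part of these other cell types in the results was not tested. In such bulk libraries, fewer cells with an open promoter and a less open promoter in each cell cannot be told apart.

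Some promoters are shown as sequence because they carry the letters of the 3 regulators or lack them. They come from RefSeq (GRCm38.p6), run 5′ to 3′ on the gene's strand and cover the 250 bases before the start. Capitals mark GCATGCG (NRF1), CCGGAAG (ETS/GABP) or AAGATGG (YY1) on either strand. The start base is position 1 and the base before it is position -1. The Atp5j promoter, chr16:84834977-84835226 on the minus strand, was the 1 member window with the letters of all 3. Sdhb (chr4:140961021-140961270, plus strand) and Cox6a1 (chr5:115348959-115349208, minus strand) carry NRF1 letters, and Cox6a1 also has ETS letters (those of Sdhb lie after the start, outside this stretch). Cox6b2 (chr7:4753095-4753344, minus strand), the testis isoform of a complex IV subunit, has none of the 3.
Atp5j: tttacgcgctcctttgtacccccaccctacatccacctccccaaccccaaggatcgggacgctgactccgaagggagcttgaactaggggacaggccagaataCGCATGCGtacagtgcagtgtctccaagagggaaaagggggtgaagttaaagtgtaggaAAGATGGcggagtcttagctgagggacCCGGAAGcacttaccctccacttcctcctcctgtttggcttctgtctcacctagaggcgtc
Sdhb: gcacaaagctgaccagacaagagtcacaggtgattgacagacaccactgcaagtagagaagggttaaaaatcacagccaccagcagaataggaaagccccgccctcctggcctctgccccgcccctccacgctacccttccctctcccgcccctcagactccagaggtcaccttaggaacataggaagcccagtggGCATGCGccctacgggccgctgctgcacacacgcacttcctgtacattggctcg
Cox6a1: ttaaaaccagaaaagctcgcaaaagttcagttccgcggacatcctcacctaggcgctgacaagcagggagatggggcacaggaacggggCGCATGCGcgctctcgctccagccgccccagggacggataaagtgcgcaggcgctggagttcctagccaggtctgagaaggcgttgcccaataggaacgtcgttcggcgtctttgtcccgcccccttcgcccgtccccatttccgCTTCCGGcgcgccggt
Cox6b2: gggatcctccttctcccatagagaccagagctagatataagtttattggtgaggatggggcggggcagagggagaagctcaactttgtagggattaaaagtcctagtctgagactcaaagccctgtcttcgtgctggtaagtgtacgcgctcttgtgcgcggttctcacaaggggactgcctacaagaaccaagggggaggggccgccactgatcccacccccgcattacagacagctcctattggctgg

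Most YY1 letters lay just after the start. Of 10 matches in member windows, 8 (80%) began on the sense strand at positions 20 to 49. In the other coding promoters this held for 208 of 1386 matches (15.0%). The stretch of these positions is shown for the 8 genes, with AAGATGG in capitals. Those letters contain ATG, and whether any match holds the start codon of the protein was not tested. Of the 8 genes, 7 encode complex I subunits, where complex I held 35 of the 67 member windows searched.
Ndufa3: aacAAGATGGccgggagtaagtacaggttt
Ndufa9: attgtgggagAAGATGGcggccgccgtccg
Ndufb8: gtgaaccgcggagaaggtgAAGATGGctgc
Ndufc1: aacAAGATGGcgccgtccgtagtgctgcgc
Ndufs4: ggcgtttgcctacaggAAGATGGcggcggt
Ndufs6: caagggtcaccggcAAGATGGcggcggtgc
Ndufs7: aggccAAGATGGcggcgctggcgggtgagt
Atp5j2: cttcAAGATGGcgtcactcggtgagtactc

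The shares of member windows with the letters of the 3 regulators were above those of coding promoters at large, as counts with no test. Both strands were searched over 67 RefSeq windows of 62 member genes, and shares are given beside 10202 windows of coding genes with a promoter peak and 21263 windows of all coding genes. NRF1 letters were in 16.4% of member windows, 5.50% of windows with a peak and 4.44% of all windows. ETS letters were in 23.9%, 14.5% and 11.6%, and YY1 letters in 14.9%, 6.52% and 6.24%. At least 1 of these motifs was in 44.8% of member windows, 24.0% of windows with a peak and 20.3% of all. The GC box GGGCGG was in 41.8% of member windows and 59.5% of windows with a peak. Letters of the estrogen-related receptor, AAGGTCA, were in 8.96% and 3.57%, and 4 of their 6 member windows belonged to complex V. CCAAT (40.3% and 37.0%), TGACGT of the CRE (10.4% and 10.5%), the E-box CACGTG (8.96% and 9.26%) and TATAAA (8.96% and 8.17%) were close to windows with a peak. Of 165 matches in member windows, 2 overlapped a match of another motif. A ratio of observed to expected CpG above 0.6 was found in 86.6% of member windows and 62.2% of windows with a peak. Windows of ribosomal protein genes, also needed in every cell, had shares of the same order for some of these traits. NRF1 letters were in 12.3% of mitochondrial and 8.47% of cytosolic ribosomal windows, ETS letters in 29.8% and 32.2%, and YY1 letters in 12.3% and 16.9%. Letters of the estrogen-related receptor were in 5.26% of mitochondrial and 8.47% of cytosolic ribosomal windows. A CpG ratio above 0.6 was found in 91.2% of mitochondrial and 93.2% of cytosolic ribosomal windows. The ETS, YY1, estrogen-related receptor and CpG shares were thus not particular to the respiratory chain. Nor can this be said of the NRF1 share, with 11 of 67 member windows against 7 of 57 mitochondrial ribosomal windows. These shares are descriptions, windows of 1 gene overlap, and a match is not a bound site.

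**Figure D1:**
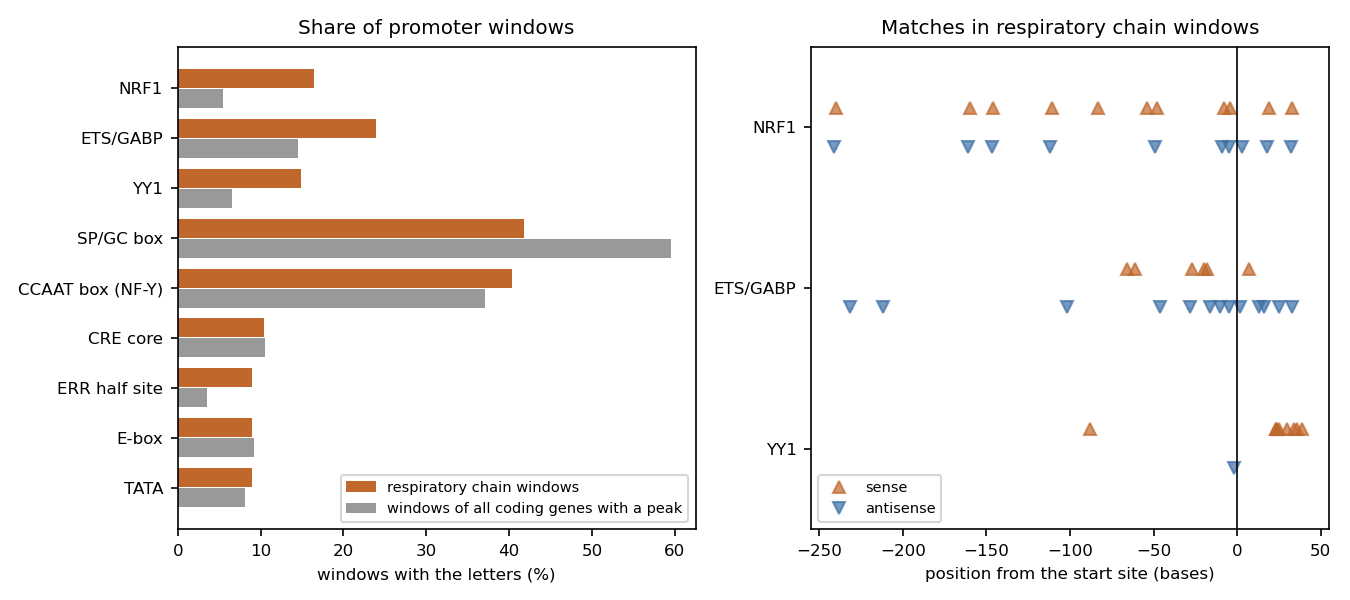
Left, share of promoter windows (%) with the letters of each motif on either strand, for 67 respiratory chain windows and 10202 windows of coding genes with a peak. Right, position of each NRF1, ETS/GABP and YY1 match from the start site (bases) in the respiratory chain windows, by strand. YY1 matches sit on the sense strand just after the start in 8 of 10 cases.

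Respiratory chain promoters were well open in both ages. The median gene had 28.9 CPM per kb of peak over all libraries, against 21.3 for all coding genes with a promoter peak. The median was 32.7 for cytosolic and 23.0 for mitochondrial ribosomal protein genes. Per length, the medians were 28.7 for complex I, 44.7 for complex II, 43.2 for complex III, 31.0 for complex IV and 27.3 for complex V. The highest level was at Atp5g1, a gene of the membrane ring that turns with proton flow, with 155 CPM per kb, followed by Ndufv1, the NADH-binding subunit of complex I, with 128. The lowest were Cox6a2, an isoform of heart and skeletal muscle, with 4.27 CPM per kb, and Cox6b2, with 4.90. The Cox6a2 member is a peak of 161 bp centred 365 bp after its TSS, which the annotation places at the end of another gene, and no RefSeq window was matched for Cox6a2, so its value may not be the level of its start. Between libraries, the median coefficient of variation was 7.05% for member genes, against 9.55% for all coding genes. It was 6.92% for cytosolic and 7.72% for mitochondrial ribosomal protein genes. Members also had more counts, with a median of 24.2 CPM against 18.1 for all coding genes.

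**Figure D2:**
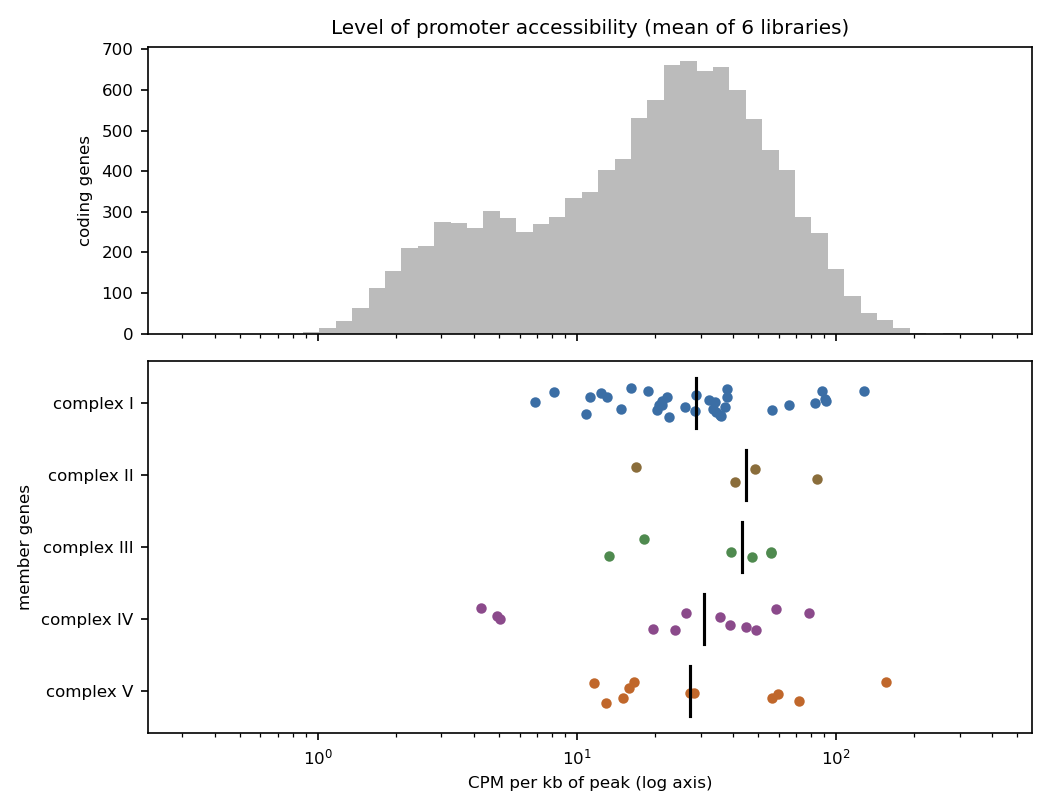
Level of promoter accessibility in CPM per kb of peak (log axis, mean of 6 libraries). Top, number of coding genes; bottom, each member gene as a point by complex, with the median as a black line. Most members lie near the main mode of coding promoters, and 3 complex IV genes lie near 5.

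No respiratory chain promoter differed between aged and young organoids at an adjusted p under 0.05. All 70 peaks passed the count filter and were tested by edgeR's quasi-likelihood test, with Benjamini-Hochberg adjustment over all 132055 peaks tested. Among all those peaks 1.13% were called, and among coding promoter peaks 1.26%. At an unadjusted p under 0.05 there were 3 members (Atp5j, Cox6b2 and Atp5e), where 10.1% of coding promoter peaks passed. DESeq2 also called 0 members, where it called 0.783% of coding promoter peaks. At an unadjusted p under 0.05 by DESeq2 there were 2 members, where 6.36% of coding promoter peaks passed. With the replicate number as a block, edgeR called 0 members, where it called 3.26% of coding promoter peaks. At an unadjusted p under 0.05 with the block there were 4 members, where 15.2% of coding promoter peaks passed. The smallest adjusted p by edgeR was 0.246, at Atp5j.

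The differences were small and bounded. The median log2 fold change, aged over young, was -0.02 over 67 genes, with 29 positive and 38 negative and a range of -0.44 to 0.38. All coding genes had a median of 0.03, with 60.1% positive, and all peaks a median of -0.01. The 95% interval lay within ±0.5 on the log2 scale for 63 genes; the exceptions were Atp5o, Cox6a2, Cox6b2 and Uqcrh, of which all but Cox6b2 had under 2 CPM. By complex the median was -0.02 for I, -0.05 for II, -0.04 for III, -0.02 for IV and 0.10 for V. In complex V 8 of 11 genes were positive, against 15 of 34, 1 of 4, 1 of 6 and 4 of 12 in complexes I to IV. The complex V count rests on the peaks that the rule took. Complex V genes without a member peak had negative values over their RefSeq start at Atp5b (-0.014), Atp5g2 (-0.078), Atp5h (-0.022) and Atp5pb (-0.046). Atp5md was positive there (0.082). At RefSeq starts missed by the member peak, values were -0.086 at Atp5o and 0.068 at Atp5d. With young replicate 1 left out, the median over all members was -0.0068. Promoters of mitochondrial ribosomal proteins (58 genes) had a median of -0.01 and those of cytosolic ribosomal proteins (65 genes) of -0.02.

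**Figure D3:**
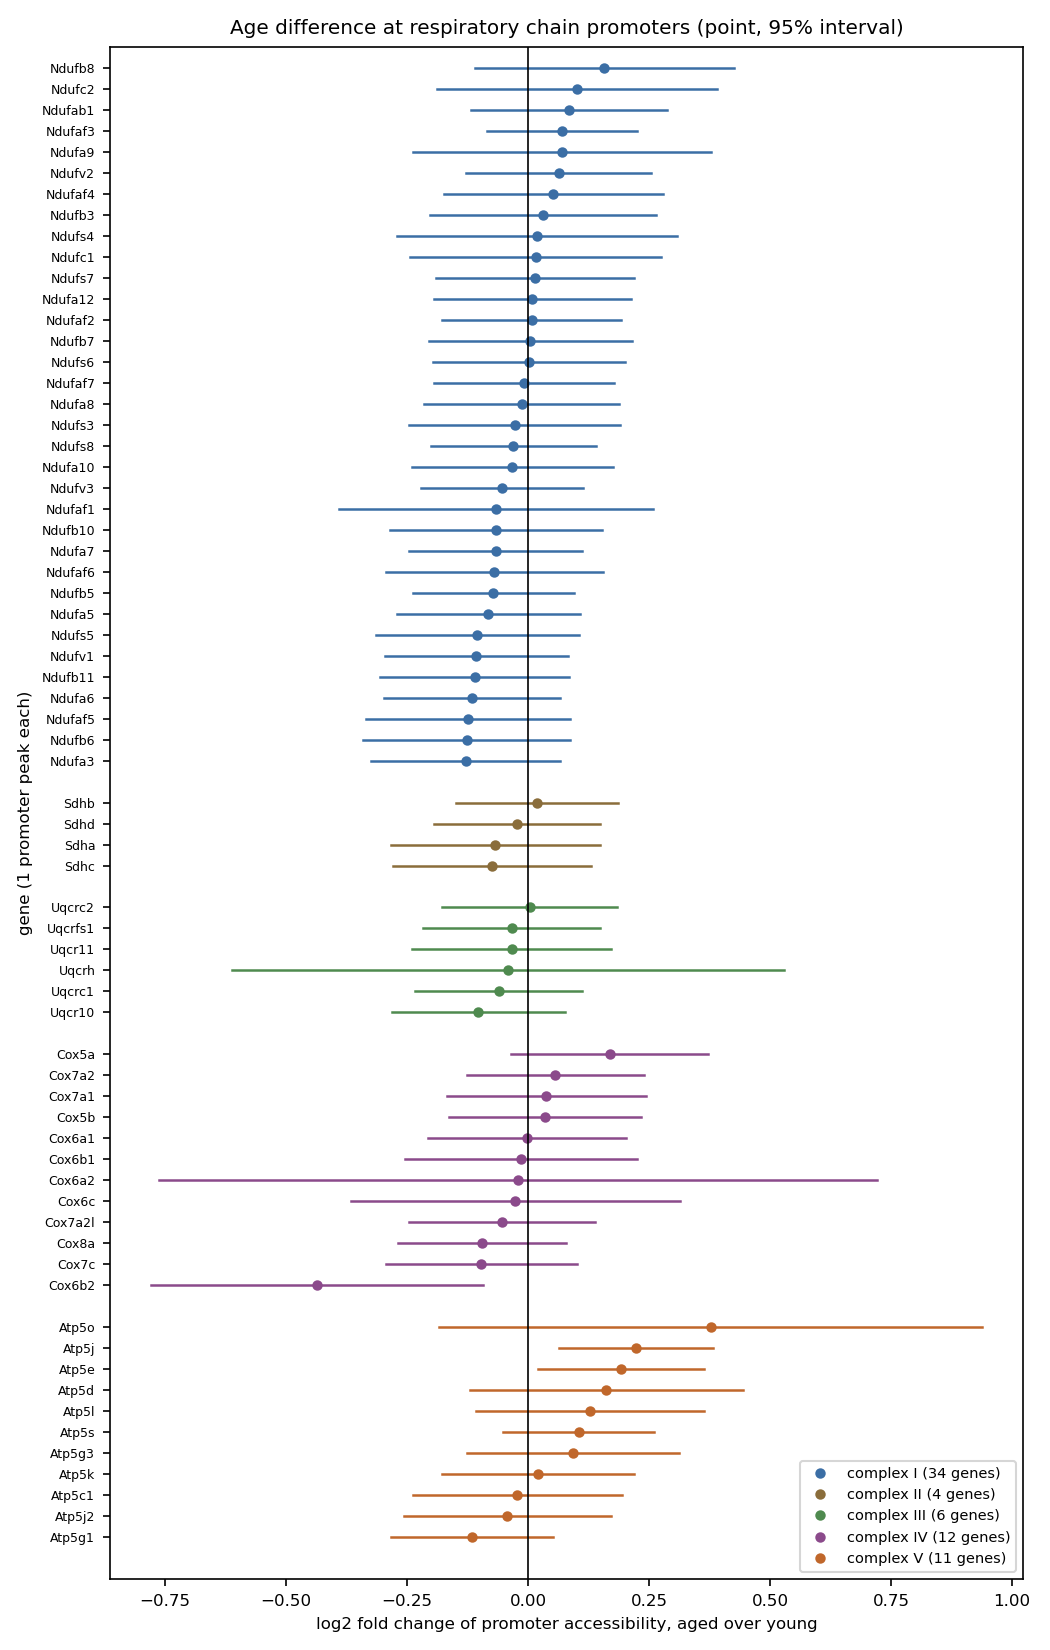
Log2 fold change of promoter accessibility, aged over young, for 67 genes, with 95% intervals (lines), grouped by complex. Values run from -0.44 to 0.38, and 63 intervals lie within ±0.5.

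Few members separated the ages library by library. All 3 aged values were above all 3 young values at 4 genes (Cox5a, Atp5j, Atp5l and Atp5s), where 11% of coding promoter peaks did so. They were below at 2 genes (Ndufs5 and Sdhc), where 5.18% of coding promoter peaks did so. Within each passage, aged minus young had 1 sign in all 3 pairs at 13 genes. It was positive at Atp5e, Atp5j, Atp5l, Atp5o, Atp5s and Cox5a, and negative at Atp5g1, Ndufb11, Ndufb6, Ndufs5, Ndufs8, Ndufv3 and Sdhc. Of coding genes 23.4% were positive and 11.6% negative in all 3 pairs. The signs of the other 54 genes were mixed.

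The summed accessibility of the chain overlapped between the ages. All 70 peaks summed to 1951 ± 22.2 CPM in aged and 1973 ± 81.6 CPM in young libraries (SD, n = 3 each). Complex I summed to 962 ± 12.5 CPM in aged and 987 ± 48.3 in young, and complex II to 122 ± 1.49 CPM in aged and 124 ± 3.16 in young. Complex III summed to 177 ± 1.52 CPM in aged and 184 ± 11.7 in young, and complex IV to 292 ± 4.34 CPM in aged and 297 ± 14.0 in young. Complex V summed to 406, 391 and 394 CPM in aged libraries, against 388, 376 and 378 CPM in young libraries. Its ages did not overlap, with a ratio of 1.04 that has no test. The gap between the mean sums of complex V (397 CPM in aged and 381 in young libraries) leans on few peaks. Atp5j averaged 66.7 CPM in aged and 57.0 in young libraries, and Atp5e 52.2 and 46.1. Of the 11 genes 3 were negative, among them Atp5g1 (91.3 and 99.6). The Atp5j peak also overlaps the start window of another gene, Gabpa, and a sum without it was not made. The sum over all coding promoter peaks did not overlap either, with 270277 ± 92.8 CPM in aged and 262484 ± 5156 in young libraries, a ratio of 1.03. Scaling to coding promoter peaks brought the log2 ratio of complex V to 0.02, against 0.06 with all peaks.

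**Figure D4:**
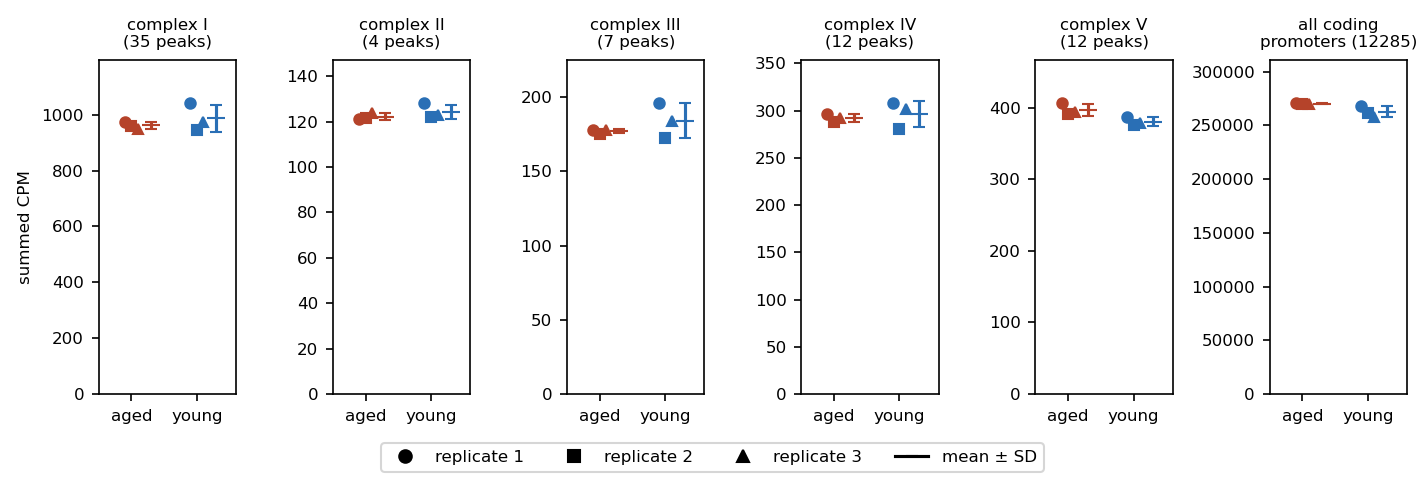
Summed CPM of the member peaks of each complex and of all 12285 coding promoter peaks, in each library (points), with mean ± SD of 3 libraries. Complex V and all coding promoters are higher in aged libraries without overlap, and complexes I to IV overlap. The complex V gap leans on few peaks, among them Atp5j.

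Complex I, the NADH dehydrogenase, had no called member, and its fold changes were the narrowest range of the large complexes. Its 34 genes ran from -0.13 to 0.16 on the log2 scale. The 5 core subunit genes had a median of -0.03, the 22 accessory subunit genes -0.02 and the 7 assembly factor genes -0.0085. At Ndufb8, an accessory subunit of the membrane arm, CPM was 12.2, 11.2 and 12.3 in aged libraries, against 9.12, 12.2 and 10.02 in young libraries. The ages overlapped, through young replicate 2 (log2 fold change 0.16, SE 0.13, edgeR adjusted p = 0.779). Ndufa3, another accessory subunit, had 27.0, 27.1 and 25.3 CPM in aged libraries, against 32.1, 26.9 and 28.8 in young libraries. Young replicate 2 again lay among the aged values (log2 -0.13, SE 0.096, edgeR adjusted p = 0.736).

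Ndufv1, with the highest level of complex I, had 68.0, 63.1 and 65.5 CPM in aged libraries, against 85.9, 60.0 and 68.6 in young libraries. Young replicate 1 was the highest and young replicate 2 the lowest, so the young values spanned the aged ones. The log2 fold change was -0.11 (SE 0.093). Ndufs4, an accessory subunit known from a mouse model of Leigh syndrome, had the lowest level, with 6.88 CPM per kb and 7.96, 8.32 and 7.49 CPM in aged libraries, against 8.0003, 7.94 and 7.54 in young libraries. These values are nearly alike, with a log2 fold change of 0.02 (SE 0.14). Ndufs5 was the accessory subunit without overlap, with 18.0, 18.7 and 17.9 CPM in aged libraries and 19.8, 19.6 and 19.4 in young libraries; its log2 fold change was -0.11 (SE 0.10, edgeR adjusted p = 0.822).

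Complex II, succinate dehydrogenase, also works in the citric acid cycle. At Sdhb, the iron-sulfur subunit shown above, CPM was 43.1, 45.7 and 45.1 in aged libraries, against 46.3, 43.6 and 42.8 in young libraries. The ages overlapped (log2 0.02, SE 0.082). Sdhc, a membrane anchor, had 19.4, 19.8 and 20.3 CPM in aged libraries, against 20.8, 21.1 and 20.7 in young libraries. The groups were apart by less than 1 CPM (log2 -0.07, SE 0.10, edgeR adjusted p = 0.885). Sdhd, the other anchor, averaged 40.0 ± 0.498 CPM in aged and 40.9 ± 2.33 in young libraries. Sdha, the flavoprotein, averaged 17.7 ± 0.906 CPM in aged and 18.4 ± 0.757 in young libraries (SD, n = 3 each).

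Complex III carries electrons to cytochrome c. Uqcr10, a small accessory subunit with the highest level of the complex, had 38.8, 39.4 and 39.8 CPM in aged libraries, against 45.1, 37.7 and 44.8 in young libraries. Young replicate 2 was below the aged values and the other young libraries were above them (log2 -0.10, SE 0.088, edgeR adjusted p = 0.785). Uqcrc2, a core protein, had 35.7, 36.4 and 36.7 CPM in aged libraries, against 40.7, 35.1 and 33.9 in young libraries, so the young values spanned the aged ones. Uqcrc1, the partner core protein, averaged 43.5 ± 1.63 CPM in aged and 45.6 ± 3.53 in young libraries. Uqcrfs1, the Rieske iron-sulfur protein, averaged 33.2 ± 0.417 CPM in aged and 34.3 ± 2.86 in young libraries (SD, n = 3 each). The Uqcrh member was a peak of 97 bp with a mean of 1.29 CPM, which does not cover the RefSeq start. That start lay under a peak annotated to Lrrc41, with 53.6 ± 3.33 CPM in aged and 51.7 ± 2.80 in young libraries.

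Complex IV, cytochrome c oxidase, held the largest difference by size and the isoform pairs. Cox6b2, the testis isoform, had 6.73, 7.16 and 6.13 CPM in aged libraries, against 5.19, 10.4 and 9.97 in young libraries. Young replicate 1, the shallowest library, was the lowest of all and the other young values the highest, so the ages overlapped. Its log2 fold change was -0.44 (95% interval -0.78 to -0.09, edgeR adjusted p = 0.323). Without young replicate 1 it was -0.61 and passed the threshold (edgeR adjusted p = 0.0459), which was the 1 call at a member under any alternative run. The peak, chr7:4751846-4753395, extends from the promoter into the gene, with its centre 403 bp after the TSS. Within passages, aged minus young was 0.34 at passage 4, -0.50 at passage 3 and -0.66 at passage 2 on the log2 scale.

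The common isoform Cox6b1 averaged 13.8 ± 1.02 CPM in aged and 14.0 ± 0.257 in young libraries. Per length its level was 19.5 CPM per kb, against 4.90 at Cox6b2. Cox6a1, the common isoform, had 23.9 CPM per kb. The Cox6a2 peak at the end of another gene had 4.27 CPM per kb, which makes no comparison of the promoters of this pair; its counts were few, with 0.682, 0.554 and 0.893 CPM in aged and 0.421, 0.832 and 0.738 in young libraries. Per length, the order was the other way for Cox7a1, known as the heart and muscle isoform, with 58.8 CPM per kb, against 38.9 at Cox7a2, the common isoform. The Cox7a1 peak was narrower (567 bp, against 892 bp). Without division by length, Cox7a1 was not higher, with a mean of 33.3 CPM against 34.7 at Cox7a2. Cox7a1 averaged 33.6 ± 2.90 CPM in aged and 33.0 ± 4.80 in young libraries, and Cox7a2 35.2 ± 1.497 in aged and 34.2 ± 2.55 in young libraries (SD, n = 3 each).

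Cox5a, a subunit facing the matrix, had 33.1, 34.3 and 33.2 CPM in aged libraries, against 33.1, 32.4 and 24.7 in young libraries. The ages did not overlap only because the lowest aged value was just above the highest young value, and young replicate 3 stood apart (log2 0.17, SE 0.10, edgeR adjusted p = 0.635). Without young replicate 3 the log2 fold change was 0.037. Cox8a, with the highest level of complex IV at 78.6 CPM per kb, averaged 58.2 ± 0.970 CPM in aged and 62.3 ± 7.83 in young libraries. Its relatives Cox8b and Cox8c, and the pair Cox4i1 and Cox4i2, had no peak under the rule.

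Complex V, the ATP synthase, held the member with the smallest p. Atp5j encodes coupling factor 6 of the stalk that holds the enzyme's head. It had 70.5, 65.4 and 64.4 CPM in aged libraries, against 54.3, 59.5 and 57.1 in young libraries. All aged values were above all young values, by a log2 fold change of 0.22 (95% interval 0.06 to 0.38, edgeR adjusted p = 0.246). Over the alternatives run, its log2 fold change was 0.18 to 0.25 and its adjusted p 0.0852 to 0.680, the lowest with the replicate block. The peak, chr16:84834668-84835759, also overlaps the RefSeq start window of Gabpa on the opposite strand, which encodes the DNA-binding subunit of GABP. Accessibility of the shared stretch cannot be assigned to either gene.

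Atp5e, the epsilon subunit of the head, had 51.8, 54.5 and 50.2 CPM in aged libraries, against 51.1, 44.4 and 42.7 in young libraries. Young replicate 1 lay among the aged values (log2 0.19, 95% interval 0.02 to 0.36, edgeR adjusted p = 0.434). Atp5g1, which encodes the same c subunit as Atp5g2 and Atp5g3, had 92.4, 85.3 and 96.2 CPM in aged libraries, against 111, 85.8 and 102 in young libraries. The ages overlapped, although each aged library was below the young library of its passage (log2 -0.12, SE 0.082, edgeR adjusted p = 0.718). Atp5g3 averaged 19.1 ± 1.72 CPM in aged and 17.9 ± 0.446 in young libraries. Atp5s, listed by RefSeq as Dmac2l, averaged 65.3 ± 2.26 CPM in aged and 60.7 ± 0.0952 in young libraries (SD, n = 3 each). The Atp5o member, with the largest positive value (0.38, SE 0.28), was a peak of 121 bp with a mean of 1.41 CPM that does not cover the RefSeq start. The peak over that start averaged 19.1 ± 0.475 CPM in aged and 20.4 ± 1.43 in young libraries, so the sign there was the opposite (log2 -0.09, SE 0.10).

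**Figure D5:**
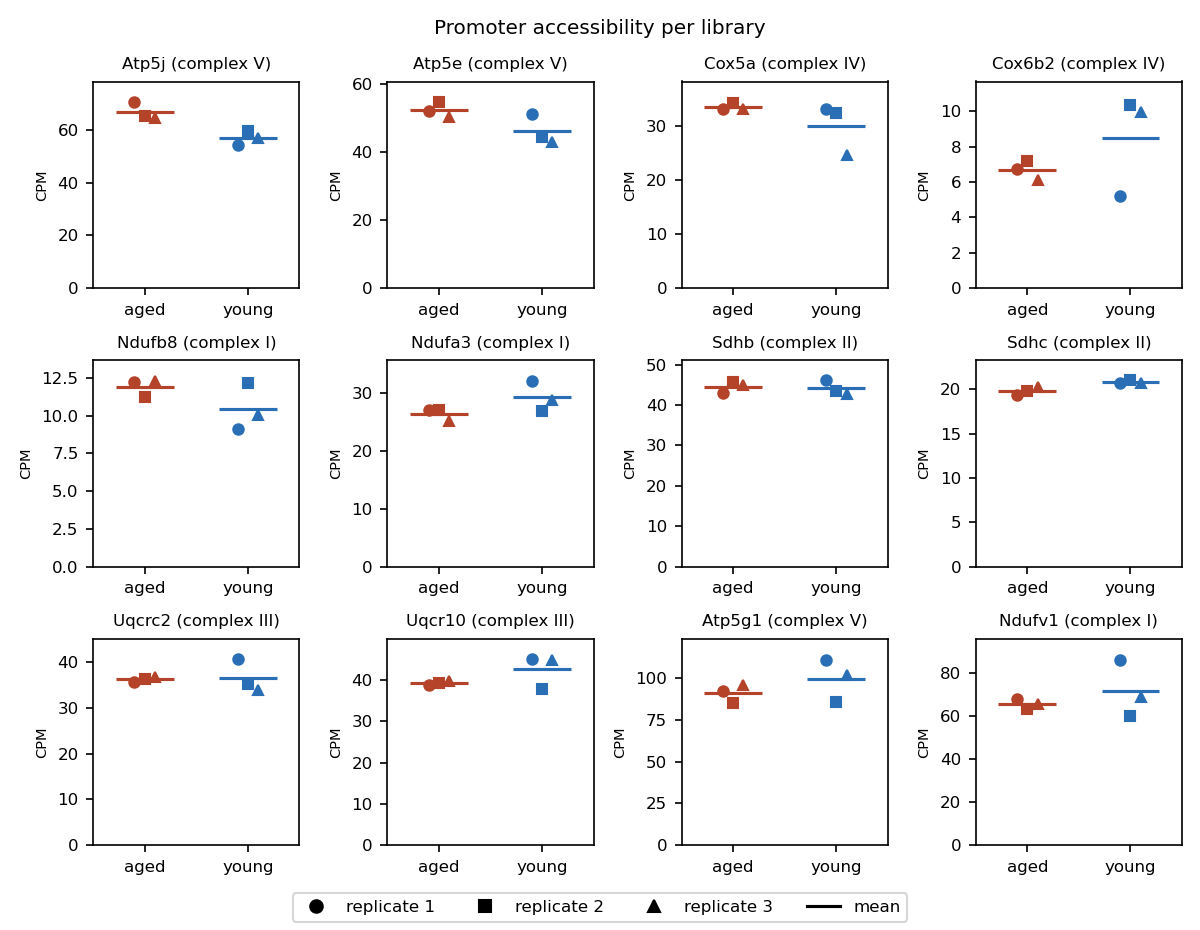
CPM at the promoter peak of 12 member genes, by library (symbols for replicates, line for the mean), aged left and young right; axes start at 0. The aged Atp5j values, 64.4 to 70.5, lie above the young ones, 54.3 to 59.5, whereas most other genes overlap.

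Many members share a start region with a neighbour. RefSeq start windows run from 250 bases before to 50 after the start, and any overlap with the peak was counted. For 58 member genes the peak overlapped their own window. At 13 (22.4%) it also overlapped the window of a coding gene on the opposite strand, against 9.70% of 6513 coding genes. Wider peaks can overlap more windows, and the median width was 841 bp for member genes and 754 bp for all coding genes. Among them were Sdhd with Timm8b, which encodes a mitochondrial import protein, Ndufb5 with the mitochondrial ribosomal gene Mrpl47, and Uqcr10 with Zmat5. At such peaks the counts cannot be assigned to either start.

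The RefSeq starts of Ndufa7 and Atp5d also lay under other peaks than the members. That of Ndufa7 was under a peak named for Rps28, a ribosomal gene, with 11.7, 11.5 and 10.9 CPM in aged libraries, against 12.6, 14.2 and 14.5 in young libraries. All aged values were below all young values, and the difference did not pass (log2 -0.29, SE 0.12, edgeR adjusted p = 0.382). The member peak of Ndufa7, 8 bp from its annotated TSS, had 42.1, 43.8 and 43.9 CPM in aged libraries, against 50.8, 40.0 and 46.7 in young libraries, and overlapped. At Atp5d, the peak over the RefSeq start averaged 40.8 ± 2.41 CPM in aged and 39.0 ± 1.41 in young libraries, and the member peak 10.9 ± 0.175 in aged and 9.38 ± 1.94 in young libraries (SD, n = 3 each).

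The rule leaves out genes whose start is annotated to a neighbour. RefSeq listed 96 genes with these names, and 30 had no member peak. Of these, 13 had a peak over their RefSeq window that the annotation gave to another start or placed beyond the distance limit; this check was added after the values were seen, and edgeR called none of the 13. Atp5b, the catalytic beta subunit, lay under a peak named for Snord59a, with 49.4 ± 2.89 CPM in aged and 49.97 ± 2.46 in young libraries (SD, n = 3 each). Ndufa4 lay under a peak named for Phf14, with 29.0, 29.8 and 27.4 CPM in aged libraries, against 25.4, 28.7 and 22.2 in young libraries, and the ages overlapped (log2 0.17, SE 0.10, edgeR adjusted p = 0.624). Atp5g2 lay under a peak named for Mir688, with 31.9 ± 1.49 CPM in aged and 33.8 ± 2.29 in young libraries. Ndufs1, Atp5a1 and Ndufa4l2 were not analysed here. At the distance limit, the members just inside were the extra peaks of Ndufb7 (-903 bp) and Atp5l (999 bp), and those just outside were peaks of Sdhb (1014 bp) and Ndufa8 (1027 bp). All 4 were small, with means of 0.920 to 5.47 CPM.

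Passage, which runs with the replicate number, was tested as a trend beside age. By edgeR it had 0 calls among members and 4 among all peaks (0.00303%). At an unadjusted p under 0.05 there was 1 member, the extra Atp5l peak, where 2.85% of coding promoter peaks passed; DESeq2 was not run for this trend.

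Genes around the chain gave 1 call. In the list of assembly factors of complexes II to IV with Cyc1 and Cycs, 14 of 24 genes had a promoter peak. Cyc1 encodes cytochrome c1, a complex III subunit that the name rule leaves out. Its log2 fold change was 0.06 (SE 0.098). The cytochrome c gene Cycs had no promoter peak. Of the 14 genes, 1 passed, in the lower direction, where 1.26% of coding promoter peaks were called. Cox19, a copper-handling protein needed for complex IV assembly, fell by 0.45 on the log2 scale, with 19.4, 17.1 and 14.3 CPM in aged libraries, against 26.1, 22.8 and 21.1 in young libraries (SE 0.11, edgeR adjusted p = 0.0417). All aged values were below all young values. The call was lost in 6 of 14 alternatives: with DESeq2 (adjusted p = 0.109), after thinning to the shallowest library (0.225), and without aged replicate 2 (0.108), aged replicate 3 (0.446), young replicate 1 (0.195) or young replicate 2 (0.0548). It held in the other 8, with an edgeR adjusted p of 0.000309 with the replicate block, and the log2 fold change was -0.55 to -0.34 over all 14.

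The other lists had no call by edgeR. They were other complex I assembly factors (4 of 6 genes with a peak), complex V assembly and regulation (3 of 4), regulators of mitochondrial biogenesis (9 of 15), the TCA cycle (8 of 12) and uncoupling or alternative entry (3 of 6). At an unadjusted edgeR p under 0.05 these lists held 1 gene, Ucp2, where 10.1% of coding promoter peaks passed. DESeq2 called 0 genes of these lists. Ucp2 encodes an uncoupling protein of the inner membrane. Ucp2 had 48.9, 51.1 and 51.7 CPM in aged libraries, against 42.4, 47.1 and 39.7 in young libraries. The ages did not overlap (log2 0.23, SE 0.085, edgeR adjusted p = 0.285), and without young replicate 2 it passed (edgeR adjusted p = 0.0420). Among regulators, Esrra averaged 90.2 ± 1.54 CPM in aged and 93.5 ± 10.3 in young libraries. Tfam, which packages mitochondrial DNA, averaged 27.0 ± 1.68 in aged and 25.2 ± 2.42 in young libraries (SD, n = 3 each).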

How the data were processed

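The authors deposited a count table of 6 libraries over consensus peaks, and a GRCm38 annotation of those peaks. Per the file headers, the counts are featureCounts values, not normalised. The submitters' processing notes name MACS2 2.2.7.1, featureCounts 2.0.1, BWA 0.7.17-r1188, Picard 2.23.1, SAMtools 1.10 and Trim Galore 0.6.4, among others. How duplicates and the Tn5 offset were treated was not given in the sources used here, and PCR ran for 20 cycles without molecular identifiers, so counting precision covers counting error only.

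Peaks were joined by identifier, and 1-based starts are printed. The age comparison used edgeR 4.0.16 under R 4.3.3 (quasi-likelihood F test, robust, TMM, filterByExpr with minimum count 10), which left out 24678 peaks, with calls at an adjusted p of 0.05. CPM used TMM-scaled totals, and per-kb values were divided by peak length. Within-passage values are log2(CPM + 0.5). DESeq2 1.42.0 was an alternative. The fit was tested on simulated data. Titles give same-numbered libraries a shared culture code and passage, which was taken as pairing. Deviations from group means correlated at 0.0738, 0.126 and 0.144 within pairs. Between aged and young libraries of different number the values were -0.125 to 0.00328. Deviations within an age depend on each other, so these values are no test of the pairing. Culture codes in titles and descriptions differ.

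Named genes were those with the smallest p each way and the highest and lowest level per complex, and genes fixed by name; a few others, such as Ndufs5, Atp5e, Atp5s and the genes in shared or missed starts, were chosen after their values were seen. From other lists, called genes or the smallest p were to be named, and Esrra and Tfam were added. Members and lists were chosen with earlier results of these data known. Other alternatives changed the scaling, the filter, the depth (thinning), the block, passage as a term, the distance limit and each left-out replicate.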

Additional observations from a re-analysis of the deposited data

How the results depend on the processing

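No member was called under other scalings, without the filter, after thinning, with passage as a term or by DESeq2. The count of called members over left-out replicates was 0 to 1, the 1 being Cox6b2 without young replicate 1. With the replicate block the count was 0, while calls over all peaks went to 3523, against 1491 without it; the median over members was -0.012 with the block, and no member's call changed. Calls over all peaks were 695 after thinning, 901 by DESeq2 and 830 to 1902 over left-out replicates, the lowest without aged replicate 3. Passage calls over all peaks were 32 without a filter, against 4. The causes were not tested.

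Scaling to coding promoter peaks brought the median log2 fold change to -0.059 over all members (16 of 67 positive), -0.061 in complex I, -0.086 in II, -0.057 in IV and 0.064 in V, and the log2 ratio of summed CPM to -0.067 in II and 0.020 in V. Thinning gave 0.13 in V. Over left-out replicates the median was -0.060 to -0.019 in complex II, -0.093 (without young replicate 2) to -0.033 in III, -0.039 to 0.035 in IV (positive without aged replicate 2) and 0.087 to 0.15 in V.

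Of 25 named members, 11 kept their sign in every alternative run and 14 did not; the largest value among those 14 was 0.16 (Ndufb8). Thinning gave 0.082 at Cox6a1, -0.0016 at Cox7a1, -0.038 at Ndufb8 and -0.11 at Ndufs4. Scaling to coding promoter peaks gave -0.0063 at Cox7a1, -0.021 at Ndufs4, -0.023 at Sdhb and -0.038 at Uqcrc2, and library totals gave -0.0070 at Uqcrc2. Passage as a term gave 0.0027 at Cox6a1 and 0.0097 at Cox6a2, where the replicate block gave 0.0040 and DESeq2 0.014. Over left-out replicates the log2 fold change was -0.038 to 0.036 at Cox6a1, -0.23 to 0.16 at Cox6a2, -0.071 to 0.029 at Cox6b1, -0.094 to 0.15 at Cox7a1, -0.0021 to 0.099 at Cox7a2, -0.20 to 0.0037 at Cox8a, -0.015 to 0.060 at Ndufs4, -0.22 to 0.028 at Ndufv1, -0.0030 to 0.046 at Sdhb, -0.062 to 0.013 at Sdhd, -0.044 to 0.071 at Uqcrc2, -0.070 to 0.023 at Uqcrfs1 and -0.15 to 0.16 at Uqcrh.

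The 95% interval reached beyond ±0.5 on the log2 scale at Uqcrh, Cox6a2, Atp5o and Cox6b2. The first 3 of these peaks had under 2 CPM, and Cox6b2 had a mean of 7.59 CPM. No limit of detection was computed.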
